A study of Drosophila melanogaster with 14 samples.

Results

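Of 51 listed fly genes of DNA replication and mitosis, 41 had a probeset of their own on the array, out of 11981 genes with one. A gene was counted where its symbol, current or older, was the only symbol of a probeset. The 41 genes held 43 probesets, since fzy had 3 and every other gene had 1. They comprised 17 of 21 listed genes of replication, all 4 listed cyclins and 20 of 26 listed genes of mitosis. Orc6, geminin, Mcm7, RnrS, polo, aurA, BubR1, Klp3A, asp and pav had no probeset of their own and were not analysed here.

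The study compared flies carrying sesB1, a mutation of the X-linked gene for an adenine nucleotide translocase, with wild type. Total RNA of whole flies was hybridised to Affymetrix Drosophila 2.0 arrays, giving 3 arrays for each sex of wild type and 4 for each sex of sesB1, all labelled as biological replicates. The methods describe RNA isolations in triplicate, which the 4 arrays of each sesB1 group exceed, and how they correspond is not given in the sources used here. Females were virgins, and all flies were kept at 25 °C. Flies of both genotypes were F1 hybrids of Canton S mothers and Oregon R fathers. The mutant allele had been backcrossed into each background for more than 10 generations. The sample titles name the sesB1 females only as mutant. They were taken to carry the allele on both X chromosomes, and sesB1 males carried it on their only one. The sample labels give 2 days of age at extraction and the series description 1 day. RNA came from batches of whole flies, so fewer cells of a type and less RNA per cell cannot be told apart.

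DNA replication starts at origins bound by the origin recognition complex, which with its loading factors places the MCM helicase on DNA. The helicase opens the fork, where the clamp loader sets the sliding clamp PCNA that holds the polymerases. In mitosis, cyclins and their kinases, condensin, the kinetochore checkpoint, the anaphase-promoting complex and the central spindle act in turn to condense, attach, separate and partition the chromosomes. Most somatic cells of an adult fly no longer divide, whereas in the ovary the germline and follicle cells divide, nurse and follicle cells replicate their DNA repeatedly without dividing, and nurse cells load the egg with messenger RNA for replication and mitosis proteins.

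The values are log2 intensities centred on the median of each probeset over the 14 arrays, as deposited. For a gene whose 7 female arrays all lie above its 7 male arrays, 0 falls midway between the lowest female and the highest male array, so values can be set against each other between arrays but not between genes. All genotype differences are sesB1 minus wild type in log2 units, fitted with limma over 18769 probesets, and a change was called at a Benjamini-Hochberg adjusted p under 0.05. Some arrays held transcripts of the other sex. The mean of the 3 yolk protein genes, which females express, was -1.30 on wild-type male array 2 and -2.69 on sesB1 male array 4, but between -7.62 and -7.34 on the other 5 male arrays. The mean of 8 accessory gland genes, which males express, was -3.80 on sesB1 female array 2 and -1.92 on sesB1 female array 4, against -5.28 to -5.10 on the other 5 female arrays. Values without these arrays are given where leaving them out changes a call.

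**Figure D1:**
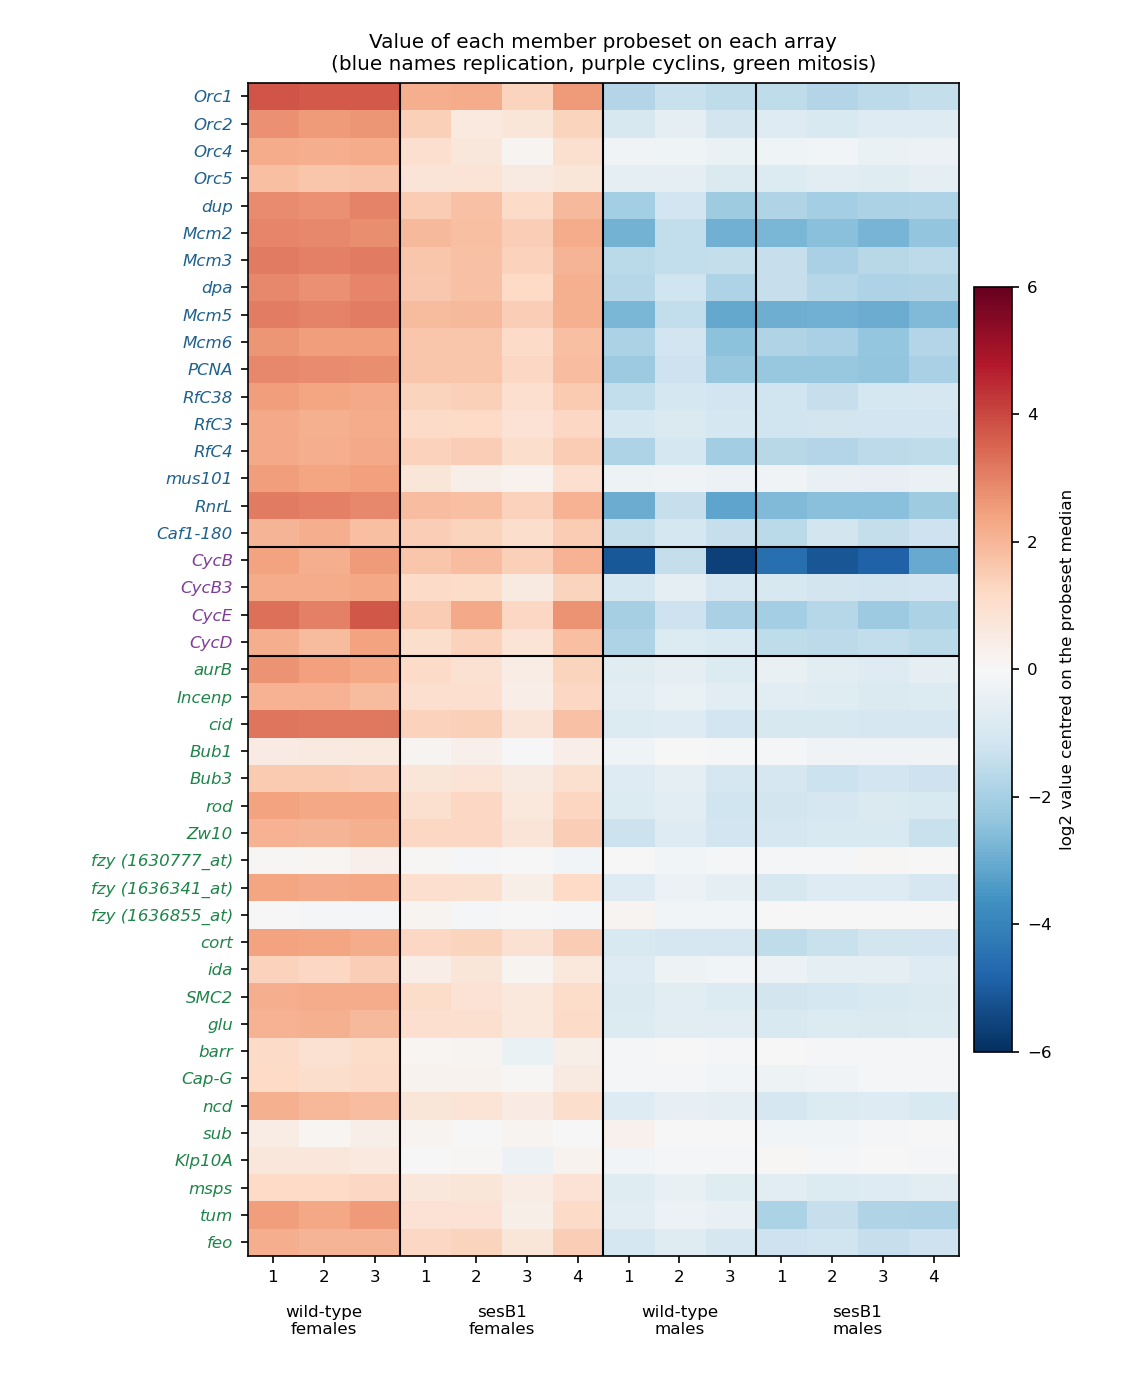
Log2 value of each of the 43 probesets, centred on its median over the arrays, on each of the 14 arrays; columns are arrays grouped by genotype and sex with their replicate number, and colour runs from -6 (blue) to 6 (red). The wild-type female columns are reddest, the sesB1 female columns are paler, and both male groups are blue for most genes. CycB reads -5.11 and -5.61 on wild-type male arrays 1 and 3 but -1.45 on array 2.

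In females, 39 of the 41 genes were lower in sesB1 and 0 were higher (limma), where 18.9% of all probesets were called lower and 13.4% higher. All 41 differences were negative, with a median of -1.08 against 0.01 over all probesets, and at an unadjusted p under 0.05 the counts were 40 lower and 0 higher. A decrease of at least 2-fold was called for 25 genes, against 2.42% of all probesets. Every sesB1 female array lay below every wild-type female array for 40 genes, a separation that 22.1% of all probesets showed. The exception was sub, and fzy was the other gene without a call. Without sesB1 female arrays 2 and 4 the count remained 39. Quantile normalization, which forces the same distribution of centred values on every array, cut the number of called genes to 11 over the 14 arrays and to 18 within each sex, and turned the differences of Caf1-180 and CycB positive (0.10 and 0.18 over the 14 arrays). The median over the replication genes was then -0.26 and over the mitosis genes -0.55. Over all 18769 probesets, quantile normalization cut the lower calls in females from 3544 to 1536 over the 14 arrays and to 1647 within each sex.

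**Figure D2:**
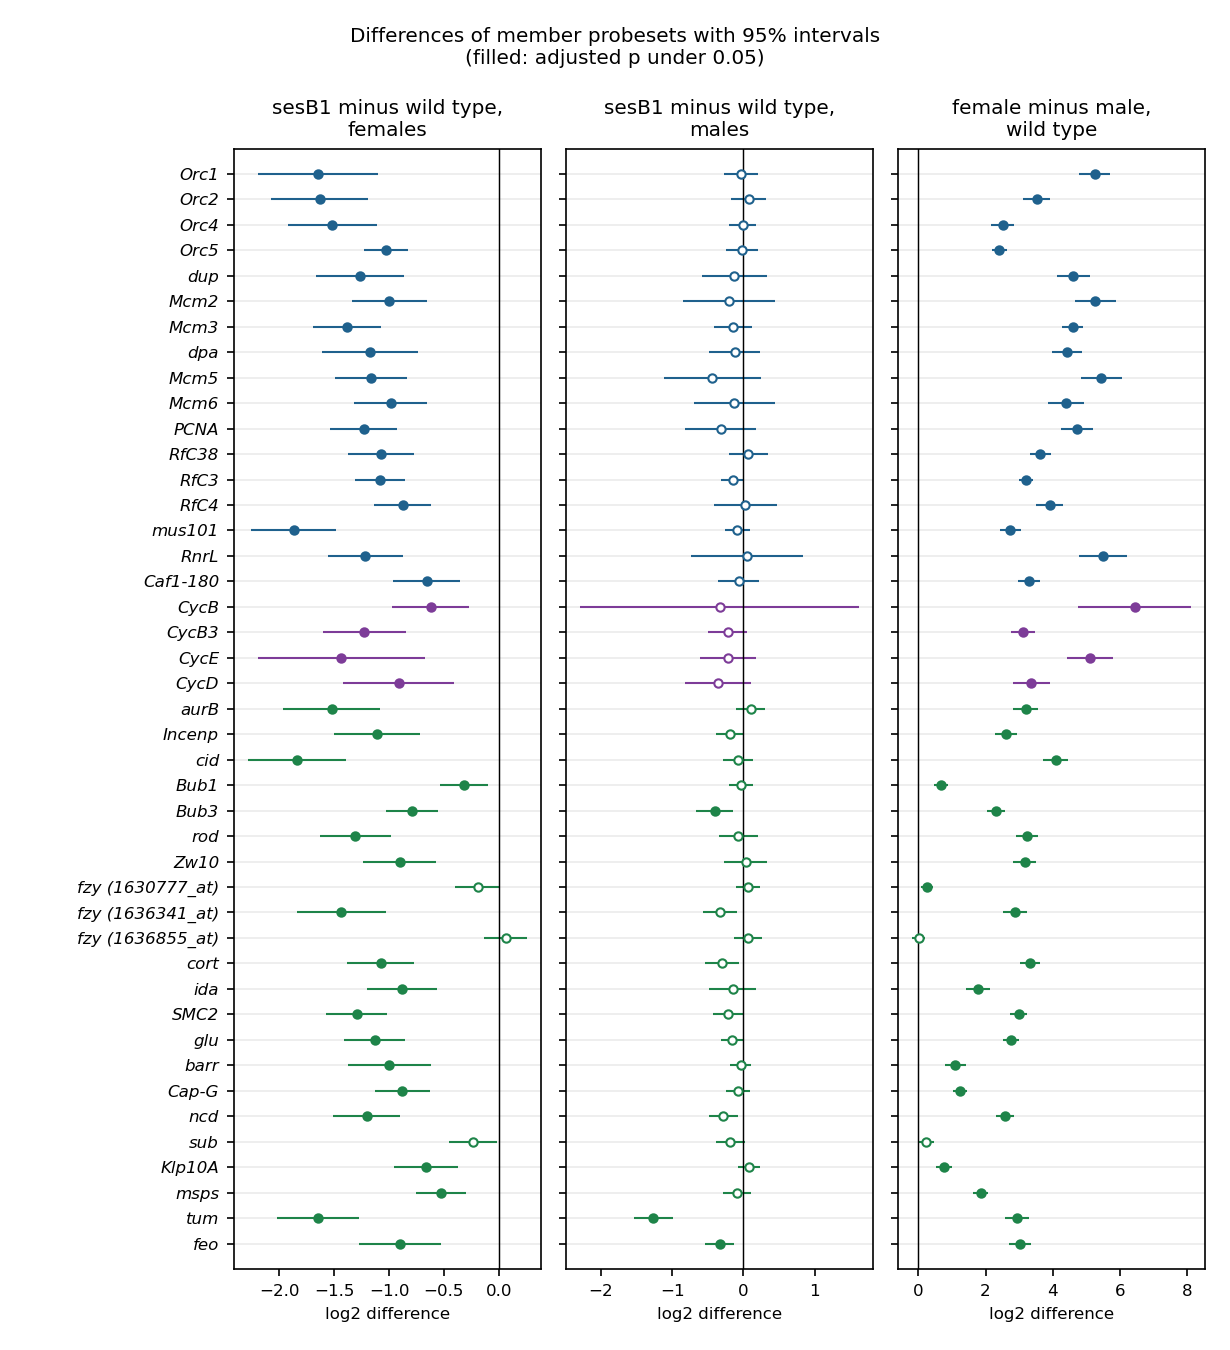
Log2 difference with its 95% interval from limma for each probeset: sesB1 minus wild type in females (left), in males (middle) and female minus male in wild type (right); blue is replication, purple cyclins, green mitosis, and filled points have an adjusted p under 0.05. In females the points lie to the left of 0 except 1 probeset of fzy at 0.06, in males they lie around 0 with tum at -1.27, and the right panel runs from 0.01 to 6.44.

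The origin recognition complex and the loading factor double parked (dup, the fly Cdt1) fell together, with 5 of 5 genes called and differences from -1.65 to -1.03. Orc1, the largest subunit and an ATPase, read 3.79, 3.68 and 3.69 on the wild-type female arrays and 2.18, 2.24, 1.33 and 2.54 on the sesB1 female arrays. Male arrays read -1.74, -1.33 and -1.53 in wild type and -1.51, -1.75, -1.55 and -1.45 in sesB1. The female groups were thus clearly apart, the male groups overlapped, and the difference in females was -1.65 (SE 0.24, adjusted p = 0.000884), or 3.13-fold lower. For Orc2, a core subunit, wild-type females gave 2.74, 2.57 and 2.63 and sesB1 females 1.41, 0.59, 0.75 and 1.31. Wild-type males gave -0.95, -0.59 and -1.09 and sesB1 males -0.77, -0.91, -0.76 and -0.77 for Orc2. Its female difference was -1.63 (SE 0.20, adjusted p = 0.00036), with sesB1 female arrays 2 and 3 the lowest.

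Orc4, another ATPase subunit, stood at 2.24, 2.20 and 2.23 in wild-type and 1.0, 0.69, 0.18 and 0.94 in sesB1 females. Its male arrays lay close together, at -0.20, -0.26 and -0.41 in wild type and -0.25, -0.18, -0.40 and -0.37 in sesB1. The Orc4 difference in females was -1.52 (SE 0.18, adjusted p = 0.000332), and sesB1 female array 3 lay nearest to the male arrays. Orc5, the smallest change of the group, read 1.82, 1.68 and 1.72 in wild-type females and 0.77, 0.80, 0.55 and 0.72 in sesB1 females. In males Orc5 read -0.59, -0.55 and -0.89 in wild type and -0.84, -0.65, -0.75 and -0.55 in sesB1. Its arrays agreed well within each female group, and its difference of -1.03 had the smallest SE of all 41 genes in females (0.09, adjusted p = 7.16e-05). For dup, which brings the MCM helicase to origins, the female arrays read 2.83, 2.74 and 2.96 in wild type and 1.5, 1.74, 1.13 and 1.95 in sesB1. The male arrays of dup read -2.05, -1.13 and -2.14 in wild type and -1.81, -2.02, -1.88 and -1.87 in sesB1. The female groups did not overlap (-1.26, SE 0.18, adjusted p = 0.000688), while among males wild-type array 2 was the only one far from the rest. In males the differences were -0.03 for Orc1, 0.07 for Orc2, -0.01 for Orc4, -0.02 for Orc5 and -0.13 for dup, and none was called. For dup the value was 0.20 and for Orc1 0.07 without wild-type male array 2, again with no call.

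The 5 measured subunits of the MCM helicase all fell in sesB1 females, with differences from -1.38 to -0.98. Mcm3 had the largest change, with 3.13, 3.04 and 3.11 on the wild-type and 1.68, 1.75, 1.38 and 2.03 on the sesB1 female arrays. Its male arrays read -1.60, -1.49 and -1.41 in wild type and -1.38, -1.94, -1.68 and -1.57 in sesB1 and overlapped. The difference in females was -1.38 (SE 0.14, adjusted p = 0.000147). The subunit Mcm4, encoded by dpa, read 2.90, 2.72 and 2.92 in wild-type females and 1.61, 1.76, 1.18 and 2.15 in sesB1 females. In males dpa read -1.73, -1.18 and -1.84 in wild type and -1.39, -1.73, -1.88 and -1.82 in sesB1. Only the female groups were separate, by -1.17 (SE 0.19, adjusted p = 0.00160).

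Mcm5 stood at 3.06, 2.97 and 3.06 in wild-type and 1.91, 1.95, 1.46 and 2.12 in sesB1 females. Among males it stood at -2.75, -1.46 and -3.05 in wild type and -2.94, -2.88, -2.99 and -2.63 in sesB1. The female difference was -1.17 (SE 0.14, adjusted p = 0.000412), and the male difference of -0.44 became 0.04 without wild-type male array 2, the array with yolk protein transcripts. Mcm6, the smallest change of the helicase, read 2.66, 2.50 and 2.51 in wild-type females against 1.68, 1.65, 1.15 and 1.81 in sesB1 females. Male arrays of Mcm6 read -1.89, -1.15 and -2.45 in wild type and -1.82, -1.94, -2.33 and -1.74 in sesB1. Its difference in females was -0.98 (adjusted p = 0.000985), and Mcm2 was close to it with -1.0 (adjusted p = 0.00104), both just short of 2-fold. None of the 5 was called in males, where Mcm2 differed by -0.20, Mcm3 by -0.14, dpa by -0.12 and Mcm6 by -0.13. These 4 values were 0.26, -0.14, 0.08 and 0.21 without wild-type male array 2.

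At the replication fork, 5 of 5 genes fell in sesB1 females. The lowest difference of all 41 genes belonged to mus101, the fly TopBP1, which helps to start replication and signals stalled forks. Its female arrays read 2.52, 2.36 and 2.44 in wild type and 0.71, 0.36, 0.22 and 1.0 in sesB1, whereas the male arrays read -0.32, -0.23 and -0.35 in wild type and -0.22, -0.42, -0.48 and -0.42 in sesB1. The change in females was -1.87 (SE 0.17, adjusted p = 0.000102), 3.65-fold, and it left the sesB1 females nearer to the males than to the wild-type females. PCNA, the sliding clamp, read 2.89, 2.83 and 2.77 in wild-type females and 1.68, 1.65, 1.23 and 1.84 in sesB1 females. Its male arrays read -2.17, -1.23 and -2.29 in wild type and -2.29, -2.27, -2.36 and -1.93 in sesB1. PCNA thus fell by 1.23 in females (SE 0.14, adjusted p = 0.000245), and the sesB1 females stayed far above every male array. In males mus101 differed by -0.09 and PCNA by -0.32 (0.02 without wild-type male array 2), without a call.

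RfC38 and RfC3, subunits of the clamp loader, behaved much alike. RfC38 read 2.52, 2.38 and 2.29 in wild-type and 1.34, 1.42, 0.99 and 1.55 in sesB1 females, and in males -1.48, -1.06 and -1.15 in wild type and -1.21, -1.38, -1.05 and -0.99 in sesB1. RfC3 read 2.27, 2.13 and 2.20 in wild-type and 1.13, 1.20, 0.89 and 1.26 in sesB1 females, and in males -1.05, -0.89 and -1.07 in wild type and -1.21, -1.09, -1.14 and -1.16 in sesB1. Both had tight replicates and fell by slightly more than 2-fold in females, RfC38 by 1.07 (adjusted p = 0.000402) and RfC3 by 1.08 (adjusted p = 0.000116). RfC3 was also lower on every sesB1 male than on every wild-type male array, but its male difference of -0.15 was not called (adjusted p = 0.199). Another subunit, RfC4, had the smallest female change of the group. Wild-type females read 2.28, 2.18 and 2.26 and sesB1 females 1.4, 1.46, 1.06 and 1.53 for RfC4, and the males -1.85, -1.06 and -2.08 in wild type and -1.66, -1.77, -1.57 and -1.54 in sesB1. Its difference was -0.88 in females (adjusted p = 0.000553) and 0.03 in males, where RfC38 differed by 0.07.

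RnrL, the large subunit of ribonucleotide reductase, which makes deoxynucleotides, read 3.10, 3.00 and 2.90 in wild-type and 1.84, 1.81, 1.38 and 2.09 in sesB1 females. In males it read -2.97, -1.38 and -3.16 in wild type and -2.63, -2.49, -2.52 and -2.15 in sesB1. The female difference was -1.22 (SE 0.15, adjusted p = 0.000411). In males all 4 sesB1 arrays lay between wild-type array 2 and the other wild-type arrays. The male difference was 0.06 with all arrays, 0.62 without wild-type male array 2 (adjusted p = 0.00976) and 0.52 without that array and sesB1 male array 4 (adjusted p = 0.00768). Caf1-180, the large subunit of the chromatin assembly factor that follows the fork, had the smallest female change among the replication genes, -0.66 (adjusted p = 0.00503), with -0.06 in males.

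All 4 cyclins were lower in sesB1 females. CycE, which with its kinase drives entry into S phase and each endocycle, read 3.32, 3.04 and 3.74 in wild-type and 1.5, 2.27, 1.24 and 2.72 in sesB1 females. Its male arrays read -2.0, -1.24 and -1.97 in wild type and -2.03, -1.73, -2.16 and -1.89 in sesB1. The female arrays were widely spread for CycE but did not overlap, and the difference was -1.43 (SE 0.34, adjusted p = 0.00952). CycB3, a cyclin of mitosis and female meiosis, read 2.24, 2.21 and 2.30 in wild-type and 1.14, 1.10, 0.54 and 1.33 in sesB1 females. Male arrays gave -1.05, -0.54 and -1.01 in wild type and -0.95, -1.09, -1.18 and -1.13 in sesB1 for CycB3. It fell by 1.22 in females (SE 0.17, adjusted p = 0.000639), and no sesB1 female array reached the level of wild type.

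The mitotic cyclin CycB had the smallest female change of the 4. It read 2.43, 2.16 and 2.55 in wild-type and 1.67, 1.84, 1.45 and 2.09 in sesB1 females, and in males -5.11, -1.45 and -5.61 in wild type and -4.54, -5.13, -4.87 and -3.02 in sesB1. The female groups lay close, at 2.16 and 2.09 for the nearest arrays, and the difference was -0.62 (SE 0.16, adjusted p = 0.0131). This call was lost without wild-type female array 1 (adjusted p = 0.0530) or array 3 (0.0571), and in the joint fit of all 4 groups (0.587), whose spread holds the male arrays. CycD, which drives growth with Cdk4, differed by -0.91 in females (adjusted p = 0.0113), or by -0.79 without wild-type female array 3 (adjusted p = 0.0514). In males the cyclins differed by -0.33 (CycB), -0.22 (CycB3), -0.22 (CycE) and -0.36 (CycD), and none was called. The differences of CycB (0.97, adjusted p = 0.211) and CycE (0.03) turned positive without wild-type male array 2, and neither was called. CycD was called in males without wild-type male array 1, with -0.68 (adjusted p = 0.000450).

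**Figure D3:**
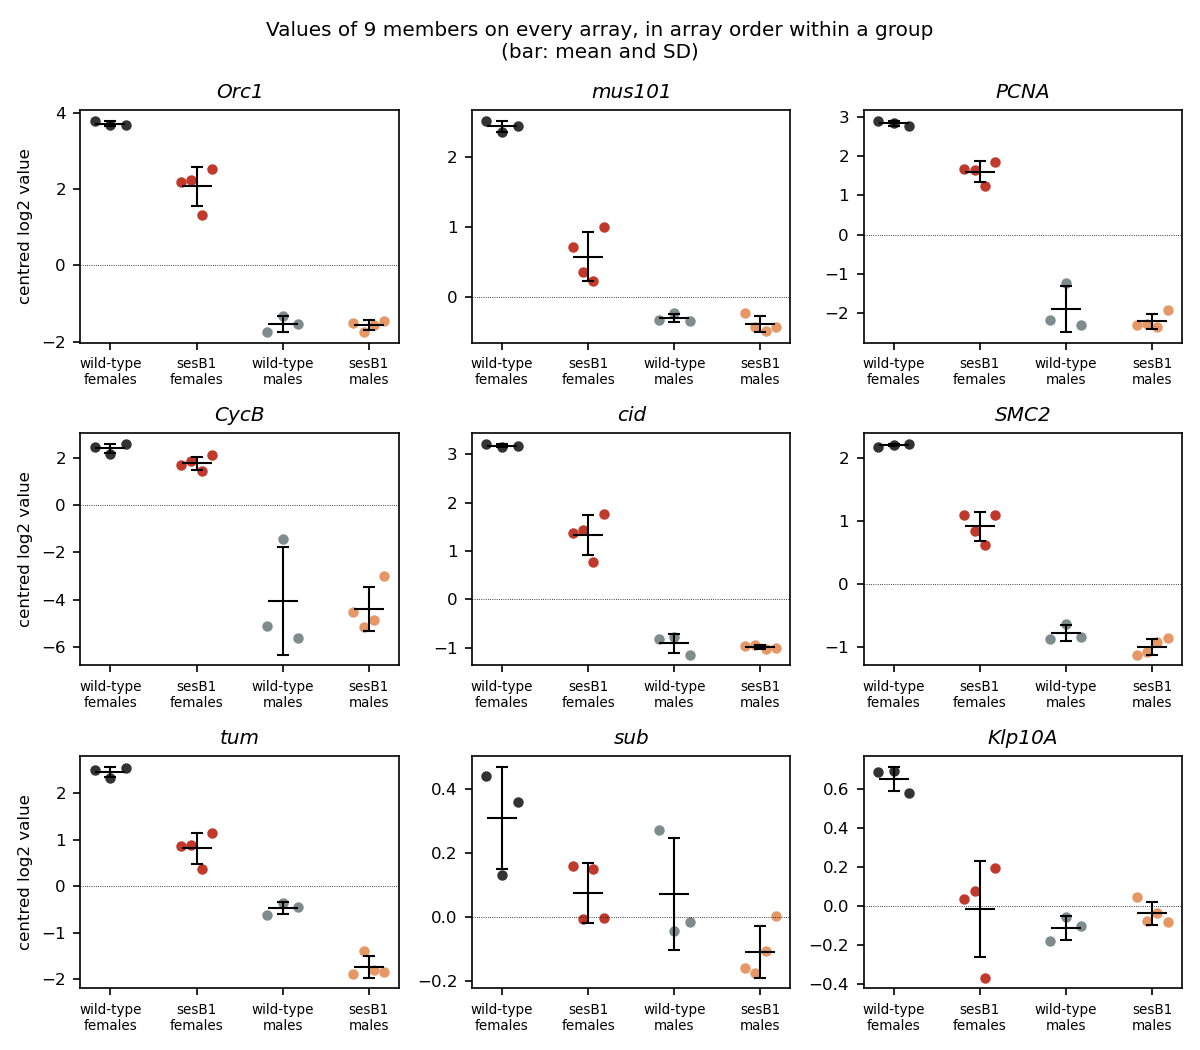
Centred log2 value of 9 genes on every array, with dots in the order of the replicate numbers and bars for the mean and SD of each group; each panel has its own scale. For Orc1, mus101, PCNA, cid and SMC2 the sesB1 females lie between the wild-type females and the males, for tum the sesB1 males also lie below the wild-type males, and for sub the groups overlap.

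Among the chromosomal passengers, aurB, the kinase that corrects faulty attachments and is needed for cytokinesis, read 2.68, 2.48 and 2.30 in wild-type and 1.16, 0.94, 0.44 and 1.32 in sesB1 females. In males it read -0.72, -0.60 and -0.81 in wild type and -0.44, -0.66, -0.76 and -0.54 in sesB1. The female difference was -1.52 (SE 0.19, adjusted p = 0.000458), and the male difference of 0.11 was the most positive of all 41 genes, without a call (adjusted p = 0.504). Incenp, the scaffold that activates aurB, read 2.06, 2.11 and 1.89 in wild-type and 1.0, 1.0, 0.41 and 1.22 in sesB1 females. Its males read -0.66, -0.41 and -0.69 in wild type and -0.68, -0.74, -0.87 and -0.83 in sesB1. Incenp fell by 1.11 in females (adjusted p = 0.00117), with sesB1 female array 3 the lowest for both genes, and differed by -0.19 in males.

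The centromere gene cid, which encodes the histone H3 variant that marks centromeres, had the largest decrease among the mitosis genes. Its female arrays read 3.22, 3.15 and 3.17 in wild type and 1.37, 1.43, 0.77 and 1.77 in sesB1, and its male arrays -0.81, -0.77 and -1.15 in wild type and -0.96, -0.95, -1.02 and -1.01 in sesB1. The wild-type females lay close together (SD 0.04, n = 3), and the difference was -1.84 (SE 0.20, adjusted p = 0.000214), 3.58-fold. The checkpoint gene rod, whose protein brings dynein to kinetochores, read 2.39, 2.33 and 2.30 in wild-type and 0.96, 1.23, 0.66 and 1.27 in sesB1 females. Males read -0.84, -0.66 and -1.20 in wild type and -1.11, -1.03, -0.85 and -0.90 in sesB1 for rod. It fell by 1.31 in females (adjusted p = 0.000239), and its partner Zw10 differed by -0.90 (adjusted p = 0.00149). In males cid differed by -0.08, rod by -0.07 and Zw10 by 0.03, and none of the 3 was called.

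The checkpoint kinase Bub1 had the smallest called change of all. It read 0.49, 0.54 and 0.59 in wild-type and 0.17, 0.29, 0.04 and 0.40 in sesB1 females, and in males -0.25, -0.04 and -0.12 in wild type and -0.06, -0.19, -0.20 and -0.22 in sesB1. All its values lay near 0, since the sexes differed little, and its female difference was -0.32 (SE 0.10, adjusted p = 0.0345). The call was lost without any 1 of wild-type female arrays 1, 2 and 3 and sesB1 female arrays 1, 2 and 3, with adjusted p from 0.0577 to 0.105. In males Bub1 differed by -0.03. Bub3, which carries Bub1 to kinetochores, differed by -0.79 in females (adjusted p = 0.000548).

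The 3 probesets of fzy, the Cdc20 activator of the anaphase-promoting complex, disagreed. The counted one read 0.08, 0.11 and 0.32 in wild-type and 0.08, -0.05, 0.02 and -0.15 in sesB1 females, and in males -0.01, -0.15 and -0.10 in wild type and -0.10, -0.08, 0.08 and 0.01 in sesB1. It differed by -0.19 in females (adjusted p = 0.156) and was not called. The next by identifier read 2.38, 2.26 and 2.32 in wild-type and 1.0, 0.98, 0.35 and 1.20 in sesB1 females, and in males -0.77, -0.35 and -0.56 in wild type and -0.96, -0.77, -0.78 and -1.03 in sesB1. On it fzy differed by -1.44 (SE 0.18, adjusted p = 0.000418), and its female groups were clearly apart. The last one read 0.02, -0.06 and -0.10 in wild-type and 0.17, -0.07, 0.03 and -0.07 in sesB1 females, and in males 0.16, -0.16 and -0.16 in wild type and -0.01, 0.02, 0.01 and 0.02 in sesB1. It differed by 0.06 (adjusted p = 0.673), and both this and the counted probeset stayed between -0.16 and 0.32 on all arrays. In males the 3 probesets differed by 0.07, -0.33 and 0.06, and none was called. With the mean of its 3 probesets fzy was called lower in females (-0.52, adjusted p = 0.00162).

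Another activator of the complex, cort, which acts in female meiosis, read 2.39, 2.38 and 2.22 in wild-type and 1.25, 1.31, 0.92 and 1.53 in sesB1 females. In males cort read -0.92, -1.01 and -1.02 in wild type and -1.54, -1.33, -1.11 and -1.16 in sesB1. It fell by 1.08 in females (adjusted p = 0.000436), and every sesB1 male array was below every wild-type male array, without a call in males (-0.30, adjusted p = 0.0700). The subunit gene ida differed by -0.88 in females (adjusted p = 0.00133) and -0.15 in males.

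All 4 measured subunits of condensin, the complex that compacts chromosomes, fell in sesB1 females, with differences from -1.29 to -0.88. SMC2 read 2.19, 2.22 and 2.23 in wild-type and 1.10, 0.84, 0.62 and 1.10 in sesB1 females, and in males -0.87, -0.62 and -0.83 in wild type and -1.12, -1.07, -0.92 and -0.85 in sesB1. Its wild-type females lay close together (SD 0.02, n = 3), and the difference was -1.29 (SE 0.12, adjusted p = 0.00012). Its partner glu, the fly SMC4, read 2.10, 2.11 and 1.95 in wild-type and 0.99, 0.94, 0.62 and 1.13 in sesB1 females, and in males -0.82, -0.62 and -0.67 in wild type and -0.90, -0.82, -0.89 and -0.83 in sesB1. The decrease of glu in females was 1.13 (adjusted p = 0.000221), close to that of SMC2.

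The subunit barr, the fly Cap-H, read 1.15, 0.94 and 1.11 in wild-type and 0.13, 0.18, -0.41 and 0.36 in sesB1 females, and in males -0.06, 0.01 and -0.06 in wild type and -0.01, -0.06, -0.14 and -0.08 in sesB1. Its difference was -1.0 (SE 0.17, adjusted p = 0.00171), and sesB1 female array 3 lay below all male arrays. Cap-G read 1.19, 1.06 and 1.15 in wild-type and 0.20, 0.23, 0.06 and 0.52 in sesB1 females, and in males -0.06, -0.10 and -0.16 in wild type and -0.30, -0.23, -0.08 and -0.11 in sesB1. Its female difference of -0.88 (adjusted p = 0.000445) was the smallest of the complex. In males the differences were -0.22 for SMC2, -0.16 for glu, -0.03 for barr and -0.07 for Cap-G, without a call.

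Of the spindle genes, ncd, a minus-end kinesin of meiotic and mitotic spindles, changed most. It read 2.11, 1.97 and 1.84 in wild-type and 0.72, 0.84, 0.47 and 1.05 in sesB1 females, and in males -0.76, -0.47 and -0.60 in wild type and -1.02, -0.84, -0.78 and -0.94 in sesB1. The female groups were clearly apart (-1.20, SE 0.13, adjusted p = 0.000261), and the male groups lay next to each other without overlap and without a call (-0.28, adjusted p = 0.0504). Klp10A, a kinesin that shortens microtubules, differed by -0.67 in females (adjusted p = 0.00368) and msps, which promotes their growth, by -0.53 (adjusted p = 0.00327). Their male differences were 0.08 and -0.09. The kinesin sub, which acts in female meiosis, read 0.44, 0.13 and 0.36 in wild-type and 0.16, -0.01, 0.15 and -0.003 in sesB1 females, and in males 0.27, -0.04 and -0.01 in wild type and -0.16, -0.17, -0.11 and 0.003 in sesB1. Its groups overlapped in both sexes, and its female difference of -0.24 was not called (adjusted p = 0.105), nor was that of -0.18 in males. Without wild-type female array 2 it was -0.32 (adjusted p = 0.0386).

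The cytokinesis gene tum, a part of the centralspindlin complex that directs the cleavage furrow, was lower in both sexes. It read 2.49, 2.33 and 2.54 in wild-type and 0.86, 0.88, 0.36 and 1.14 in sesB1 females, a difference of -1.64 (SE 0.16, adjusted p = 0.000158). In males it read -0.61, -0.36 and -0.45 in wild type and -1.90, -1.40, -1.81 and -1.86 in sesB1. Neither sex overlapped, and the male difference was -1.27 (SE 0.12, adjusted p = 5.70e-05), 2.4-fold. The female and male effects on tum differed by -0.38, which was not called (adjusted p = 0.242). Its male call held with each array left out in turn, with differences from -1.38 to -1.21, and without wild-type male array 2 and sesB1 male array 4 together (-1.17, adjusted p = 0.000846). The midzone bundler feo, the fly PRC1, differed by -0.90 in females (adjusted p = 0.00272).

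In males, 3 of the 41 genes were lower in sesB1 and 0 were higher (limma), against 10.8% and 11.1% of all probesets. These were tum, Bub3 (-0.40, adjusted p = 0.0348) and feo (-0.33, adjusted p = 0.0294). The median of the 41 differences was -0.13 against -0.01 over all probesets. At an unadjusted p under 0.05, 6 genes were lower and 0 higher by limma, and an unmoderated test gave the same counts. Every sesB1 male array was below every wild-type male array for 7 genes, RfC3, Bub3, cort, glu, ncd, tum and feo, where 15.3% of all probesets showed this. None of the 17 replication genes was called in males, and at an unadjusted p under 0.05 limma found 0 lower and the unmoderated test 1.

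Wild-type male array 2 was the highest wild-type male array for 34 of the 41 genes, and 33 of the 41 male differences were negative. How many of all probesets were highest on this array was not counted. Its median over all probesets was -0.12, against -0.03 and -0.09 on the other wild-type male arrays. When wild-type male array 2 was left out, 14 differences changed sign, 19 being negative and 22 positive. Without it and sesB1 male array 4, 22 were negative and 19 positive, tum was the only gene called lower, and RnrL was called higher. Without wild-type male array 2 alone, tum was called lower and RfC4 (0.33, adjusted p = 0.0470) and RnrL higher, while the median over the replication genes moved from -0.09 to 0.07. Bub3 then stood at -0.27 (adjusted p = 0.111) and feo at -0.23 (adjusted p = 0.0898). Bub3 also lost its call without wild-type male array 1 or sesB1 male array 2, 3 or 4 (adjusted p from 0.0666 to 0.0934), and feo without sesB1 male array 1, 3 or 4 (0.0507 to 0.0841). After quantile normalization, over the 14 arrays or within each sex, 10 genes were called lower in males. Lower calls over all 18769 probesets were then 1741 and 1860, against 2035 before.

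**Figure D4:**
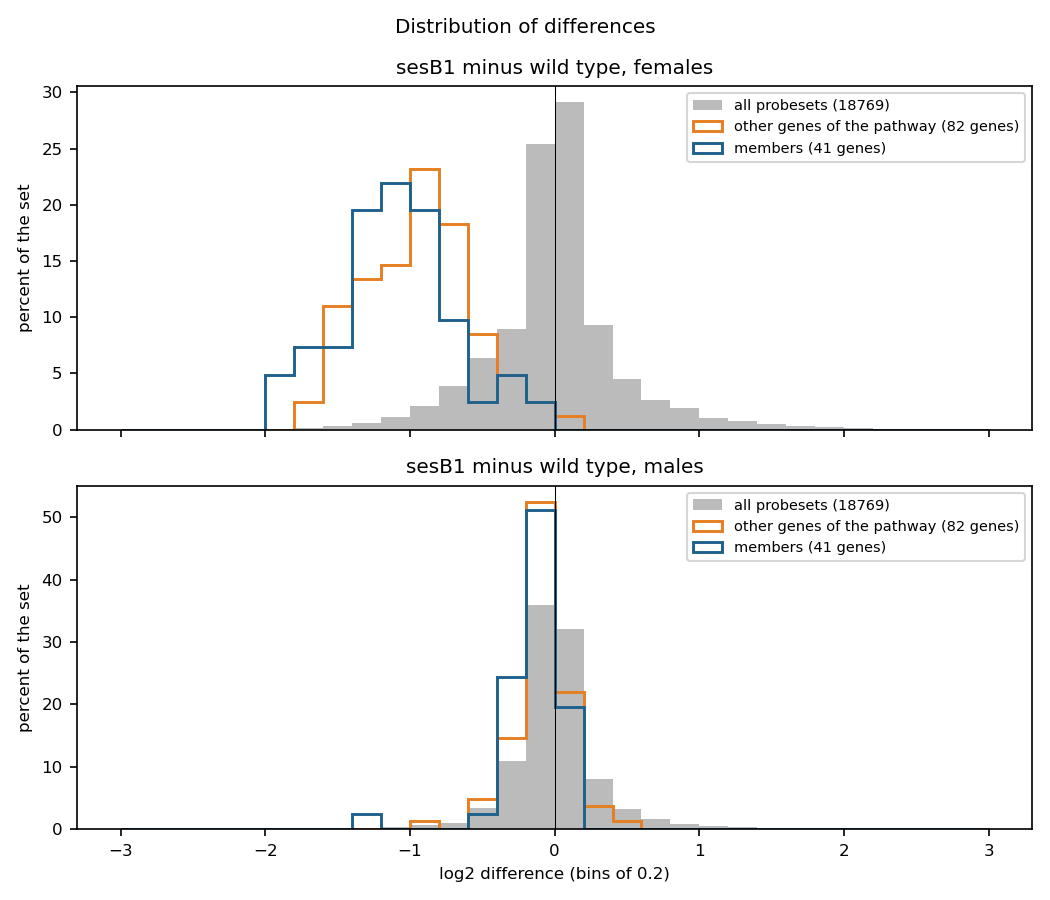
Distribution of the log2 differences between sesB1 and wild type in females (top) and males (bottom), as a percent of each set in bins of 0.2, for all 18769 probesets (grey), the 41 genes (blue) and 82 other genes of the pathway (orange). The axis stops at 3 in each direction, beyond which 35 probesets lie in females and 28 in males. The blue outline lies between -1.87 and -0.19 in females and, apart from tum at -1.27, between -0.44 and 0.11 in males.

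Whether the genotype effect differed between the sexes was tested with the sex by genotype interaction in 1 fit of all 14 arrays. The effect was more negative in females for 31 of the 41 genes and more positive for 0 (limma), against 16.0% and 11.6% of all probesets, with all 41 estimates negative and a median of -0.92. At an unadjusted p under 0.05 the counts were 35 and 0. Wild-type males lay below wild-type females by a median of 3.20 for these genes, and centred values have no zero level. Whether male signals were too low to show a decrease thus cannot be read from them and was not tested. The 10 genes without a call were Mcm2, Mcm5, Mcm6, CycB, CycD, Bub1, Bub3, fzy, sub and tum. For fzy this holds for the counted probeset. Its next probeset was called (-1.11, adjusted p = 0.00222, limma) and its last was not. Among replication genes the largest interaction was that of mus101 (-1.78, adjusted p = 3.67e-05) and among mitosis genes that of cid (-1.76, adjusted p = 0.000125). Without wild-type male array 2, 35 genes were called, with Mcm2 (-1.25, adjusted p = 0.00101), Mcm5 (-1.21, adjusted p = 0.00104), Mcm6 (-1.20, adjusted p = 0.00436) and Bub3 (-0.52, adjusted p = 0.0235) in addition. With sesB1 male array 4 left out as well, 36 were called, CycB among them with -1.13 (adjusted p = 0.0105) against -0.29 with all arrays. Without sesB1 female arrays 2 and 4, 34 were called, with CycD (-0.88), Bub1 (-0.41) and Bub3 (-0.52) in addition. Quantile normalization over the 14 arrays left 3 called interactions (mus101, barr and Cap-G), with 20 estimates negative and 21 positive. Over all 18769 probesets it cut the negative interaction calls from 3005 to 1048.

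In wild type, 40 of the 41 genes were higher in females than in males and 0 were lower, against 39.4% and 24.7% of all probesets. The median difference was 3.20 for the 41 genes and 0.15 over all probesets, 0.01 after each array was centred on its own median. That centring moved the calls over all probesets from 7387 higher and 4644 lower in females to 5584 higher and 5442 lower, and the count of the 41 genes from 40 to 39. The widest gap was that of CycB, with 6.44, which rested on male arrays spread from -5.61 to -1.45 and was 7.74 without array 2, followed by RnrL with 5.50, Mcm5 with 5.45, Mcm2 with 5.26 and Orc1 with 5.25. A difference under 2-fold was found for 4 genes, Bub1 (0.68), Klp10A (0.76), fzy (0.26) and sub (0.24, not called, adjusted p = 0.0538). The value of fzy is that of its counted probeset. Its next probeset gave 2.88 (adjusted p = 4.45e-10, limma) and its last 0.01, without a call. By the counted probesets, every sesB1 female array was above every male array of either genotype for 37 genes. The exceptions were fzy, barr, sub and Klp10A, but on the next probeset of fzy the sesB1 females also lay above all males. The share of all probesets with this separation was not counted, so the count of 37 has nothing to be set against. On the counted probeset of fzy the call between the sexes was lost without wild-type female array 3 (0.19, adjusted p = 0.0798) or wild-type male array 2 (0.23, adjusted p = 0.0590).

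Replication and mitosis genes were compared by counts and medians, without a test, and their order in females depended on the scaling. In females the median difference was -1.17 over the 17 replication genes, -1.07 over the 4 cyclins and -0.95 over the 20 mitosis genes, and 17, 4 and 18 of them were called lower. After quantile normalization the order of replication and mitosis was the opposite, with -0.26 against -0.55 over the 14 arrays and -0.33 against -0.49 within each sex. A decrease of at least 2-fold was called for 13 replication genes, 2 cyclins and 10 mitosis genes. The wild-type sex difference had a median of 4.39 for replication and 2.60 for mitosis genes. On each array, the mean of the replication genes minus that of the mitosis genes was 0.99, 0.96 and 0.96 in wild-type females and 0.76, 0.68, 0.66 and 0.77 in sesB1 females, with no overlap. In males it was -1.03, -0.60 and -1.11 in wild type and -0.82, -0.87, -0.91 and -0.71 in sesB1, with overlap. For roles with at least 2 measured genes the median female differences were -1.52 for origin recognition and licensing, -1.32 for the passengers, -1.27 for cytokinesis, -1.17 for the helicase, -1.08 for the fork, -1.07 for cyclins and for condensin, -0.90 for centromere and checkpoint, -0.88 for the anaphase-promoting complex and -0.60 for the spindle.

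Among the sesB1 female arrays, array 3 was the lowest of the 4 for 38 of the 41 genes and array 4 the highest for 35. The median over all probesets was 0.14 on array 3 and 0.02 on array 4, and the share of probesets with this order was not counted. The mean over the 41 genes was 2.19, 2.10 and 2.15 on the wild-type female arrays and 1.10, 1.12, 0.70 and 1.34 on the sesB1 female arrays, so the spread among mutants exceeded that among wild types. On the male arrays it was -1.21, -0.74 and -1.24 in wild type and -1.21, -1.25, -1.26 and -1.14 in sesB1. The accessory gland genes were raised on arrays 2 and 4, while on arrays 1 and 3 they lay at the level of the wild-type females. The 8 genes on the X chromosome, Mcm3, Mcm6, mus101, Caf1-180, CycD, Zw10, Klp10A and feo, were all called lower in females, with a median of -0.91 against -1.13 for the 33 genes on other chromosomes.

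**Figure D5:**
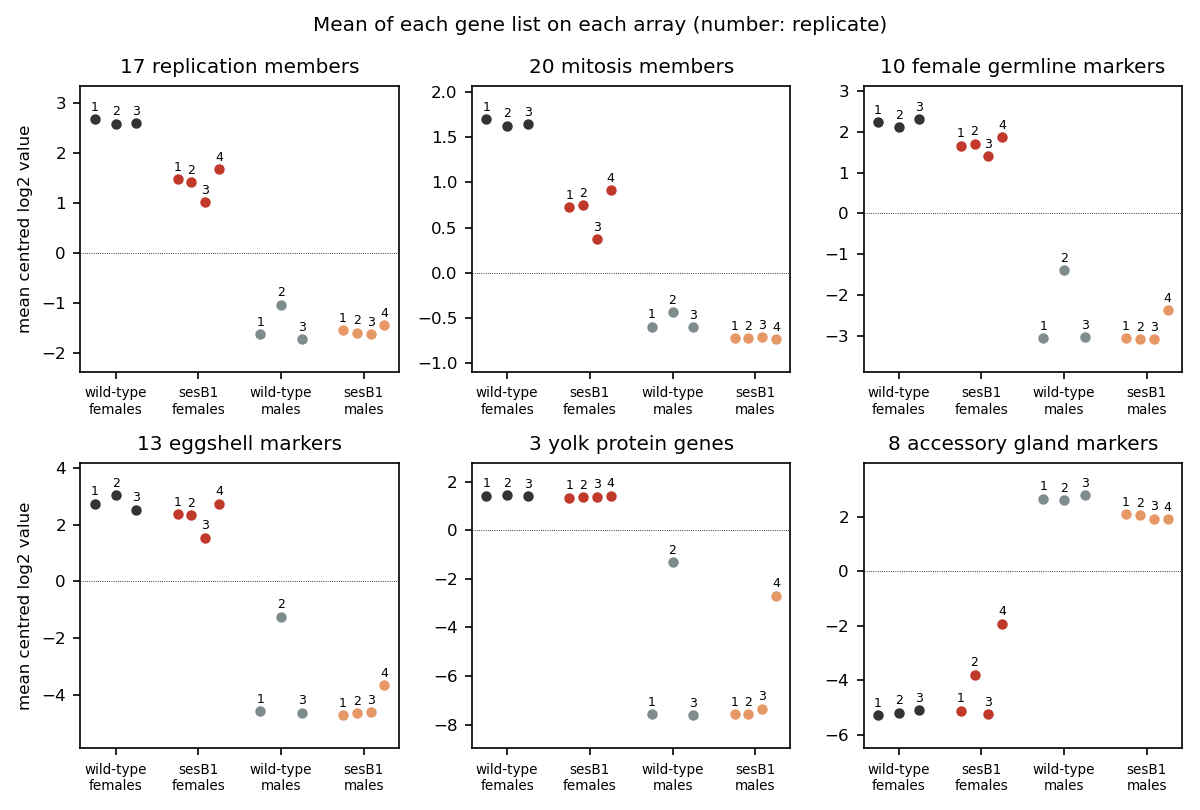
Mean centred log2 value of 6 gene lists on each array, numbered by replicate; each panel has its own scale, and exu is left out of the germline panel. Replication and mitosis genes separate wild-type from sesB1 females, with sesB1 array 3 lowest at 1.03 and 0.37, while the yolk panel sets wild-type male array 2 and sesB1 male array 4 apart from the other males and the accessory gland panel sets sesB1 female arrays 2 and 4 apart from the other females.

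Further genes of replication and mitosis outside the 51 were listed by function, and 82 of 98 had a probeset of their own. In females 78 of them were lower and 0 higher (limma), against 18.9% and 13.4% of all probesets, with a median of -0.93. These further genes were also chosen with earlier results of these data known. Their counts are therefore not an independent test of the decrease in females. By list, 24 of 25 other replication genes, 45 of 48 other mitosis genes and 9 of 9 genes of G1 and cell cycle transcription were lower. The lowest were pim (-1.78), the fly securin, thr (-1.70), a partner of separase, Rbf2 (-1.56), a retinoblastoma family protein, and Sas-4 (-1.55), which builds centrioles. The smallest called decreases were those of Cdk4 (-0.29), tacc (-0.33), the GINS subunit Psf2 (-0.34) and mip130 (-0.38). The genes without a call were chif (-0.62, adjusted p = 0.0777), SAK (-0.05, adjusted p = 0.704), Cap-H2 (0.01, adjusted p = 0.982) and Cap-D3 (-0.01, adjusted p = 0.945). Cap-H2 and Cap-D3 belong to condensin II, whereas Cap-D2, a subunit of condensin I with barr and Cap-G, fell by 1.51 (adjusted p = 0.000108).

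In males 7 of these 82 genes were lower and 1 was higher, shares below the 10.8% and 11.1% of all probesets. The lower ones were gwl (-0.82), the Greatwall kinase, borr (-0.54), the fly Borealin and a partner of Incenp and aurB, Nuf2 (-0.52) of the kinetochore, mad2 (-0.45) of the checkpoint, l(1)G0148 (-0.39), the fly Cdc7 kinase, DNA-ligI (-0.33), which joins Okazaki fragments, and pbl (-0.29), a cytokinesis factor. When wild-type male array 2 was left out, 3 were lower (gwl, Nuf2 and l(1)G0148) and 5 higher. Cdk4 was higher in sesB1 males (0.55, adjusted p = 0.0251) and lower in sesB1 females. The effect was more negative in females for 64 of the 82 genes, Cdk4 among them, against 16.0% of all probesets.

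Markers of ovarian cells differed in direction on the same female arrays. In sesB1 females 18.9% of all probesets were lower and 13.4% higher. Of 11 measured female germline markers 6 were lower and 0 higher in sesB1 females, with a median of -0.52. The counted probeset of 1 of them, exu, was far higher in wild-type males (-7.71 for females minus males), whereas the other 10 were higher in females. It was left out of the array means after its values were seen. The mean of the other 10, of which 6 were lower with a median of -0.52, ran from 2.11 to 2.32 in wild-type and from 1.41 to 1.88 in sesB1 females. Without sesB1 female arrays 2 and 4, 6 of these 10 were lower. Of 7 measured chorion genes, the late eggshell genes of follicle cells, 6 were lower, with a median of -1.48. Of 6 measured vitelline membrane and earlier eggshell genes 0 were lower and 3 higher, with a median of 0.60. Taken as 1 list, as first planned, the 13 measured eggshell genes had 6 lower and 3 higher, with a median of -1.19. None of the 3 yolk protein genes was called, with a median of -0.07. Of 5 measured flight muscle markers 0 were lower and 2 higher in sesB1 females, with a median of 0.30. Of 4 measured neuron markers 0 were lower and 1 was higher, with a median of 0.16. In males, 8 of 14 measured testis markers and 7 of 8 accessory gland markers were lower, against 10.8% of all probesets. Without wild-type male array 2 the counts were 8 and 8, and without it and sesB1 male array 4 they were 5 and 7. Centred values have no zero level, so absence of a marker cannot be read from them. The part of these cells in the differences of the 41 genes was not tested.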

How the data were processed

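Whole-fly total RNA of 14 samples was labelled with biotin and hybridised to Affymetrix Drosophila 2.0 arrays by the authors, who normalized the scans in GeneSpring GX. For its version, the summarisation method and the genome build, nothing is given in the sources used here. As deposited, the table holds log2 intensities of 18952 probesets, centred by the authors on the median of each probeset over the arrays (checked within 0.0001), from -9.10 to 6.19. Of these, 30 cells held date serials in place of values and were set to missing, none of them in a probeset of the 41 genes. Leaving out 183 control probesets left 18769. Gene symbols came from the platform annotation: 13646 probesets had 1 symbol, 402 several and 4721 none. The number of arrays limits the precision.

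Groups followed the sample labels. Genotypes were compared within each sex with limma 3.58.1 (lmFit and eBayes, R 4.3.3), as the study analysed the sexes separately, and the interaction and the wild-type sex difference came from 1 fit of the 4 groups. Adjustment was by Benjamini-Hochberg over all 18769 probesets. The limma step was tested on simulated data. A gene was counted by its first probeset in the order of suffixes _at, _a_at, _s_at and _x_at. Each measured gene is named with its difference in both sexes. Values on every array are given for genes called in females with at least 2-fold or in males with at least 1.5-fold change, for the lowest and highest of each role group of 4 or more, and for genes whose probesets disagreed. Of the other genes of the pathway, the 4 lowest and 4 highest called in each sex are named. The genes and lists were chosen with earlier results of these data known. Alternatives were quantile normalization, median centring, array weights, a robust prior, a joint fit and Student's t-test, which the methods name, beside ANOVA, for all experiments. Further ones were a replicate block, other probesets and thresholds, and arrays left out. Leaving arrays out for the genes outside the 41, and exu out of the germline markers, was chosen after seeing the data. The split of the eggshell markers into chorion and earlier genes was not planned beforehand. Promoter and protein sequences were not used here.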

Additional observations from a re-analysis of the deposited data

Results flagged for a closer look

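The genotype effect differed between the sexes, by the interaction test of limma at an adjusted p under 0.05, for 31 of the 41 genes. Values are the female effect minus the male effect in log2 units. Among origin and loading genes they were -1.62 for Orc1, -1.70 for Orc2, -1.51 for Orc4, -1.01 for Orc5 and -1.14 for dup. For the helicase and fork they were -1.24 for Mcm3, -1.05 for dpa, -0.92 for PCNA, -1.14 for RfC38, -0.94 for RfC3, -0.91 for RfC4 and -1.78 for mus101, with -1.27 for RnrL and -0.59 for Caf1-180. The cyclins CycB3 and CycE gave -1.0 and -1.22. The passengers aurB and Incenp gave -1.63 and -0.92, and the centromere and checkpoint genes cid, rod and Zw10 gave -1.76, -1.23 and -0.93. For cort and ida the values were -0.78 and -0.73, and for the condensin genes SMC2, glu, barr and Cap-G they were -1.08, -0.97, -0.97 and -0.81. The spindle genes ncd, Klp10A and msps gave -0.92, -0.74 and -0.44, and feo gave -0.57.

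Of the 31, 24 were called whichever array was left out. Caf1-180, CycE, PCNA, RnrL, feo, ida and msps lost the call without at least 1 array. Without wild-type male array 1, each of these 7 lost it, with adjusted p = 0.102 for Caf1-180, 0.106 for CycE, 0.0882 for PCNA, 0.120 for RnrL, 0.114 for feo, 0.0666 for ida and 0.0661 for msps. Without wild-type male array 3, 6 of them lost it, all but ida, with adjusted p from 0.0629 for msps to 0.127 for RnrL.

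In 3 of 82 groups of 4 sesB1 arrays, 1 array stood apart from the other 3, by a gap whose share of the group's range exceeded Dixon's critical value. This was the case in sesB1 males for Orc2 (0.923 of the range), Bub1 (0.8294) and Zw10 (0.847). Chance gives about 1 in 20 such groups.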

How the results depend on the processing

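Quantile normalization over the 14 arrays gave 11 of 41 genes called in females, 10 in males and 3 with an interaction. Within each sex it gave 18 and 10. Over all 18769 probesets it gave 2953, 3597 and 1781 calls over the 14 arrays and 3248 and 3837 within each sex. The values as deposited gave 6050, 4112 and 5183. The median over replication genes then moved from -1.17 to -0.26 and -0.33 in females and from -0.09 to -0.21 over the 14 arrays in males. That over mitosis genes moved from -0.95 to -0.55 and -0.49 in females and from -0.12 to -0.38 and -0.20 in males. Over the 14 arrays interactions turned positive for dup (0.064), dpa (0.11), PCNA (0.31), RfC3 (0.078), RfC4 (0.089), Caf1-180 (0.29), CycB3 (0.051), CycE (0.043), Incenp (0.022), cort (0.31), glu (0.053), msps (0.31) and feo (0.52), and so did the female differences of Caf1-180 (0.10, and 0.11 within each sex) and CycB (0.18 and 0.26). The cause was not tested. Student's t-test with Bonferroni adjustment left 0 genes in females, 0 in males and 7 between the wild-type sexes. Over all 18769 probesets it left 41, 55 and 967. With Benjamini-Hochberg adjustment it left 35, 1 and 39 genes, where Student's unadjusted p was under 0.05 for 39, 6 and 40. The female calls lost by it were those of CycB, CycE, CycD and Bub1. Requiring 2-fold left 25 in females, 1 in males and 16 interactions, and 1.5-fold or an adjusted p under 0.01 left 1 in males. The mitosis median in males was -0.14 with median centring and with array weights. Without wild-type male array 2 and sesB1 male array 4 the male medians were 0.03 for replication and -0.056 for mitosis.

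Leaving out 1 array at a time gave 36 to 39 genes in females, 1 to 4 in males (1 without sesB1 male array 4), 24 to 35 interactions and 39 to 41 wild-type sex differences. Medians ran from -1.31 to -1.03 (replication) and -1.05 to -0.83 (mitosis) in females, and from -0.18 to 0.068 and -0.17 to -0.079 in males. Arrays of the same replicate number did not deviate together (correlations from -0.174 to 0.0896). With the number as a replicate block 39 genes were called in females, 1 in males, 32 with an interaction and 41 between the sexes.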
